A study of Mus musculus with 4 samples.

Results

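The 10 genes described here are Dux and markers of the 2-cell-like state: Duxf3, Zfp352, Sp110, Tmem92, Arg2, Usp26, Zfp750, Ubtfl1, Zfp54 and Spz1. They were taken by symbol from a table of 55353 gene symbols, and all 10 were found in it. RNA was measured in mouse E14 embryonic stem cells, a line of strain 12910la by the labels, grown on gelatin in serum with LIF. Wild-type cells gave 2 libraries, called control 1 and 2, and another 2 came from cells in which Ssrp1, a subunit gene of the histone chaperone FACT, had been targeted with Cas9. The treatment text also describes transfection of wild-type cells with a pSuper puro vector and puromycin selection; whether that holds for these controls is not stated. Nothing in the labels ties the 2 libraries of a group to different cultures or clones, so p-values cover only the spread between these libraries, and that spread may be technical.

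The 2-cell-like state is a rare state of embryonic stem cell cultures in which genes of the mouse embryo at zygotic genome activation are on. The double homeodomain factor Dux can switch it on, by binding near its targets and near long terminal repeats of the endogenous retrovirus MERVL, many of which act as promoters of such genes. Several of the markers are otherwise known from other tissues: Sp110 and Arg2 from immune cells, Usp26 and Spz1 from testis, and Zfp750 from epidermis.

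Library totals lay between 22611434 and 25344190 counts, so that 1 count stands for between 0.0408 and 0.0453 normalised CPM (counts scaled to a common library size with TMM factors). Gm26917 and Gm42418, which resemble ribosomal RNA, made up 9.72% and 10.3% of control counts and 6.30% and 4.64% of the others. Ssrp1 itself was at 282 and 306 CPM in the controls, against 305 and 327 CPM in the targeted cells, a log2 fold change of 0.11 ± 0.06 (SE, n = 2 per group; edgeR adjusted p 0.226). Scaling by library size alone gave an edgeR adjusted p of 0.0308 and leaving out knockout replicate 1 gave 0.0108, in the upward direction each time. The transcript therefore does not check the labels, and the targeted samples are called the labelled-knockout libraries, as a name and not a checked genotype. The embryonic stem cell markers Pou5f1, Sox2, Nanog, Esrrb, Zfp42, Klf4 and Tfcp2l1 were all present in every library. By edgeR 5 of these 7 fell and 1 rose, beside 17.2% and 16.5% of all genes tested. Falls numbered 4 with DESeq2, with scaling by library size alone and with a filter of 5 CPM in 2 libraries. The number also moved when some single libraries were left out. The 1 that rose was Nanog, and it was not called with a minimum count of 3 or without control replicate 1 or 2. Pou5f1 went from 408 ± 10.4 to 316 ± 8.54 CPM (SD, n = 2).

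The start regions of Zfp352 and Sp110 are shown first because these unlinked members carry the same letters there. RefSeq promoter windows (GRCm38.p6, 250 bases before to 50 after a start) were found for 7 of the 10 members, as 10 windows, and not for Tmem92, Arg2 and Zfp750. Among the 41 pairs of windows of different members, the longest run of identical bases was 15, between Zfp352 and the upstream start of Sp110, and the next longest was 10. In both windows the run occurs 3 times ahead of a TATAAG, which begins 28 bases before the start of Zfp352 and 27 before that of Sp110. Capitals mark the 15-base run and the TATAAG. The Zfp352 window is at chr4:90218570-90218869 on the plus strand and the Sp110 window at chr1:85603842-85604141 on the minus strand.
Zfp352: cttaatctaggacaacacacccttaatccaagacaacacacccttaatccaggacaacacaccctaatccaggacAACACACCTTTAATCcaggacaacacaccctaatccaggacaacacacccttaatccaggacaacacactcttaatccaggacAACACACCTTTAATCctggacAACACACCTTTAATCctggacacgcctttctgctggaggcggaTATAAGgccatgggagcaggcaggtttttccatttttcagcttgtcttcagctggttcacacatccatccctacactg
Sp110: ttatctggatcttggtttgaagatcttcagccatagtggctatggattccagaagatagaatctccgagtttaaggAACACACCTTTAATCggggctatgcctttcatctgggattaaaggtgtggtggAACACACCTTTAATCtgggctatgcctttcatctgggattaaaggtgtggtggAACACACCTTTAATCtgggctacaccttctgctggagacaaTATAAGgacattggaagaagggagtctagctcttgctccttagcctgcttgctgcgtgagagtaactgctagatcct

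The best local alignment of the Zfp352 and Sp110 windows had 131 columns, of which 70.2% were identical. This upstream start of Sp110 lies beyond the gene's span in GENCODE M21 (chr1:85576899-85598817, minus strand), and the window of the other Sp110 start, at 85598810, does not hold the run. Whether reads from the upstream start were counted to Sp110 cannot be read from a table of counts per gene.

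Zfp54 was lower in both labelled-knockout libraries than in both controls, and the other members were higher in both. How many of all genes split in this way was not counted, so nothing is read from the split alone. The filter on low counts let 8 members through, and at a threshold of 0.05 on the adjusted p edgeR called 7 of them higher and 0 lower. Over all 17482 genes tested, 16.5% were called higher and 17.2% lower. The median log2 fold change was 4.90 over the 8 tested members and 0.00 over all genes tested. DESeq2 also called 7 higher and 0 lower, and 0 were lower at an unadjusted p under 0.05 in edgeR. Both the count and the median are in large part set by the filter. A gene with at most 3 counts over the controls could pass it only through the labelled-knockout libraries, and all 155 such tested genes, 5 of the members among them, were called higher. In bulk RNA a larger share of cells in this state and more RNA per cell cannot be told apart.

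**Figure D1:**
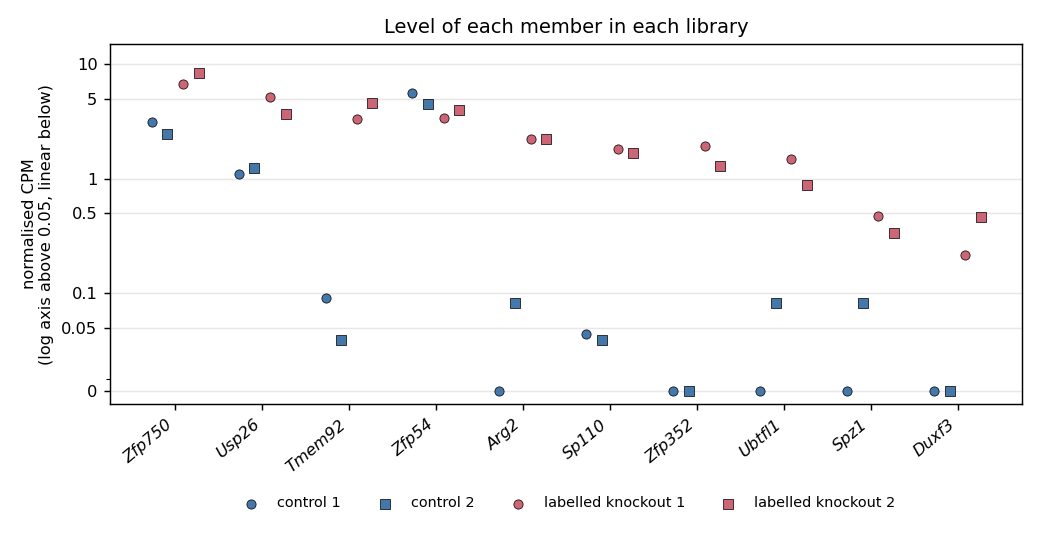
Normalised CPM (vertical axis, log above 0.05 and linear below) of the 10 members in the 4 libraries, with controls in blue and labelled-knockout libraries in red; circles are replicate 1 and squares replicate 2. Both red points lie above both blue points except for Zfp54, at 3.42 and 3.95 against 5.58 and 4.49 CPM.

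Duxf3 (chr10:58229979-58232675, mm10, minus strand) encodes the Dux factor itself. It had control counts of 0 and 0, against 5 and 11 in the labelled-knockout libraries, or 0.214 and 0.462 CPM. Both targeted libraries had reads and neither control did. Against a floor of 3 counts over the control group it was at least 5.26-fold higher, and the bound moved between 2.49 and 7.17 when single libraries were left out. Duxf3 was too thin for the filter. With a minimum count of 3, where 13.6% of all tested genes were called higher, its edgeR adjusted p was 0.0148 for the 16 counts against 0. That call was lost in fits without control replicate 1 (adjusted p 0.0901) and without control replicate 2 (0.0987). Of 3178 symbols with no count in either control and at least 1 in the labelled-knockout libraries, 141 had 16 or more, and in the reverse direction 8 of 1716 had.

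Duxf3 lies in an array of related sequences, so its reads may be shared with copies. The gene to its left, AW822073, 5049 bases away on the same strand, had control counts of 0 and 0, against 4 and 17 in the labelled-knockout libraries. Like Duxf3 it was seen only in the targeted cells, with more reads in replicate 2. The gene to its right, Gm4981, 2173 bases away, had no count in any library, which allows up to 3 counts each. The Dux-like genes Duxbl1, Duxbl2 and Duxbl3 held 2, 0 and 0 counts over all 4 libraries, and both counts of Duxbl1 were in control 1.

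Zfp352 (chr4:90218820-90225702, plus strand), a zinc finger gene of the early embryo, had 0 and 0 counts in the controls. In the labelled-knockout libraries it had 45 and 31, or 1.93 and 1.30 CPM. It was at least 25-fold higher against the 3-count floor, with an edgeR adjusted p of 9.0e-06. Of the symbols with no count in the controls, 20 had at least its 76 counts, and no symbol had as many in the reverse direction. Its nearest coding genes are 524048 bases (Dmrta1) and 1025061 bases (Elavl2) away, the first with 2 counts in all and the second with a log2 fold change of 0.07 ± 0.07.

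Sp110 encodes a nuclear body protein of the Sp100 family. It had control counts of 1 and 1, against 42 and 40 in the labelled-knockout libraries, or 0.0453 and 0.0408 against 1.80 and 1.68 CPM. The ratio of summed, scaled counts was 40.5, with an exact (Clopper-Pearson) 95% counting interval of 10.8 to 340, and the edgeR adjusted p was 9.8e-06. Replicates of each group were close, and the groups did not overlap. Its neighbour and relative Sp140, 1561 bases away on the opposite strand, had control counts of 2 and 0, against 9 and 8 in the labelled-knockout libraries, too few for the test. The related Sp100 had 0 and 0 against 3 and 2. G530012D18Rik, which shares 392 exonic bases with Sp110 on the opposite strand, had no count in any library.

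Tmem92 (chr11:94777217-94782703, minus strand) encodes a membrane protein. It went from 2 and 1 counts to 77 and 109, which is 0.0907 and 0.0408 against 3.29 and 4.58 CPM. The ratio was 61.2 (95% counting interval 20.6 to 299; edgeR adjusted p 6.8e-08), the highest point estimate of the 5 members with 2 or 3 control counts, whose intervals overlap. The nearest coding gene with counts, Col1a1, a collagen gene of connective tissue 153521 bases away, had a log2 fold change of 0.30 ± 0.31.

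Arg2 (chr12:79130777-79156301, plus strand) encodes the mitochondrial arginase. It had control counts of 0 and 2, against 52 and 53 in the labelled-knockout libraries, or 0 and 0.0817 against 2.22 and 2.23 CPM. The ratio was 51.8 (interval 14 to 433; edgeR adjusted p 3.7e-06), and against the floor, without control replicate 2 and its 2 counts, at least 16.4. Its liver paralog Arg1 was at 0 in both controls, against counts of 0 and 2. Arg2 shares 285 exonic bases with Vti1b on the opposite strand, a vesicle fusion gene at 13.2 and 14 CPM in the controls, against 17.4 and 16.7 CPM in the labelled-knockout libraries. Vti1b was called higher (log2 fold change 0.33 ± 0.12, edgeR adjusted p 0.0456), a call lost with DESeq2 (adjusted p 0.127), with looser filters (0.059 and 0.0759), and without control replicate 1 (0.27), control replicate 2 (0.117) or knockout replicate 1 (0.102). It was several times more abundant than Arg2 in counts in every library, while Arg2 was near 0 in the controls. Its part in the Arg2 counts was not tested. Rdh11, a retinol dehydrogenase gene 18036 bases away, fell (log2 fold change -0.32 ± 0.10, edgeR adjusted p 0.0219), which was lost with DESeq2 (0.0629), with scaling by library size alone (0.0851) and without control replicate 2 (0.516).

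Ubtfl1 (chr9:18404418-18413177, plus strand) is related to Ubtf, which encodes an HMG-box factor of ribosomal RNA transcription. It had control counts of 0 and 2, against 35 and 21 in the labelled-knockout libraries, or 0 and 0.0817 against 1.5 and 0.883 CPM. The ratio was 27.6 (interval 7.30 to 234; edgeR adjusted p 2.0e-04), and at least 8.73 without control replicate 2. Naalad2, a peptidase gene that starts 1423 bases away and is read in the opposite direction, had control counts of 1 and 0, against 17 and 19 in the labelled-knockout libraries. It was called higher (edgeR adjusted p 5.3e-04 for 1 against 36 counts). All 155 tested genes with at most 3 control counts were called higher, so this call follows from the filter. Ubtf itself was at 258 ± 1.72 and 235 ± 11.2 CPM, with a log2 fold change of -0.14 ± 0.06 (edgeR adjusted p 0.102, and 0.0035 without knockout replicate 2).

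Spz1 (chr13:92574636-92576172, minus strand, 1 exon) encodes a spermatogenic leucine zipper factor. It had control counts of 0 and 2, against 11 and 8 in the labelled-knockout libraries. The ratio was 9.37 (interval 2.26 to 83.0), and without control replicate 2 the bound was 2.96. It was too thin for the filter, and with a minimum count of 3 its edgeR adjusted p was 0.0516. The neighbours Zfyve16 and Serinc5 had log2 fold changes of -0.08 ± 0.10 and 0.13 ± 0.10.

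Usp26, Zfp750 and Zfp54 had enough counts in the controls for the filter to be met on either side. Usp26 (chrX:51753959-51801233, minus strand), a testis deubiquitinase gene, was at 1.09 and 1.23 CPM in the controls, against 5.18 and 3.70 CPM in the labelled-knockout libraries. It rose by a log2 fold change of 1.93 ± 0.30 (SE, n = 2 per group; edgeR adjusted p 4.7e-05), and both targeted libraries lay above both controls. The alternatives gave 1.67 to 2.15. Its left neighbour Hs6st2, a heparan sulfate sulfotransferase gene 72103 bases away on the same strand, was at 0.726 and 0.776 CPM against 4.06 and 3.61 CPM and rose by 2.34 ± 0.33 (adjusted p 1.4e-05). The relatives Usp29 and Usp37 were at log2 fold changes of 0.28 ± 0.18 and -0.13 ± 0.06, with adjusted p of 0.248 and 0.133 by edgeR; that of Usp37 was 0.0259 without knockout replicate 1.

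Zfp750 (chr11:121510978-121519333, minus strand), a zinc finger gene known for epidermal differentiation, was at 3.13 and 2.45 CPM in the controls, against 6.76 and 8.41 CPM in the labelled-knockout libraries. It rose by a log2 fold change of 1.45 ± 0.21 (edgeR adjusted p 2.8e-05), with no overlap between groups and values of 1.27 to 1.62 under the alternatives. It lies inside Tbcd, a tubulin folding gene on the opposite strand, with no shared exonic base. Tbcd was at 79.4 and 76.5 against 79.8 and 72.7 CPM, a log2 fold change of -0.03 ± 0.07 (adjusted p 0.779). Fn3k, a fructosamine kinase gene 60487 bases away, fell by 0.86 on the log2 scale (edgeR adjusted p 0.0193), and the call was lost with DESeq2 (0.0662) and without knockout replicate 1 (0.168).

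Zfp54 (chr17:21423227-21435640, plus strand), a zinc finger gene in a cluster of related genes, was at 5.58 and 4.49 CPM in the controls, against 3.42 and 3.95 CPM in the labelled-knockout libraries. Both targeted libraries lay below both controls. Its log2 fold change was -0.45 ± 0.22, with an edgeR adjusted p of 0.125 and an unadjusted p of 0.0549. The adjusted p ranged from 0.0936 to 0.506 over the alternatives, so no fall was called. Its cluster neighbours Zfp51, Zfp52 and Zfp53 had log2 fold changes of 0.01 ± 0.11, 0.19 ± 0.18 and 0.02 ± 0.13. Of the 14 listed relatives of members 12 were in the table and 6 were tested, with 0 called higher and 0 lower by edgeR and also by DESeq2. At an unadjusted p under 0.05 edgeR had 0 higher and 1 lower.

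**Figure D2:**
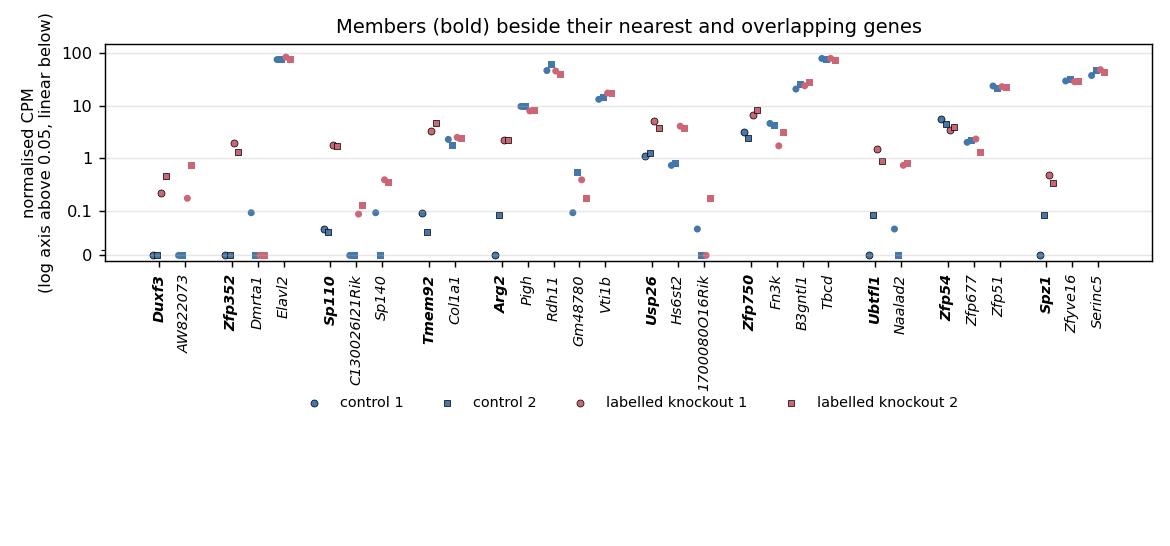
Normalised CPM (vertical axis, log above 0.05 and linear below) of each member, in bold, and of its nearest coding and overlapping genes that had a count, in the 4 libraries; controls are blue, labelled-knockout libraries red, circles replicate 1 and squares replicate 2. AW822073 beside Duxf3, Hs6st2 beside Usp26 and Naalad2 beside Ubtfl1 show the same split as the member. So do Sp140 and C130026I21Rik beside Sp110, on few counts, and by less Vti1b at Arg2 and Col1a1 beside Tmem92. Pigh and Rdh11 beside Arg2, Fn3k beside Zfp750 and Zfyve16 beside Spz1 split the other way, with both red points below both blue. In the other neighbours shown, such as Tbcd around Zfp750, at 72.7 to 79.8 CPM, the colours overlap. How many of all genes split either way was not counted.

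Levels can be set side by side only per length. Per kb of exon in GENCODE M21, the mean level in the labelled-knockout libraries ran from 2.35 CPM per kb for Zfp750, through 1.80 for Tmem92, 1.56 for Arg2, 1.30 for Zfp54, 1.07 for Usp26 and 0.709 for Zfp352, to 0.125 for Duxf3. Ubtfl1, Spz1 and Sp110 lay between, at 0.269, 0.262 and 0.256, and their libraries overlapped. Zfp750 and Tmem92 overlapped as well, as did Tmem92 and Arg2, and Zfp54 and Usp26. In the controls Zfp54 was first at 1.78 CPM per kb, followed by Zfp750 at 0.863 and Usp26 at 0.280, and the other members were at 0.0301 or less. The value for Duxf3 rests on 16 counts and that for Spz1 on 19, so counting error is wide for both, and reads of Duxf3 may be shared with copies in its array.

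**Figure D3:**
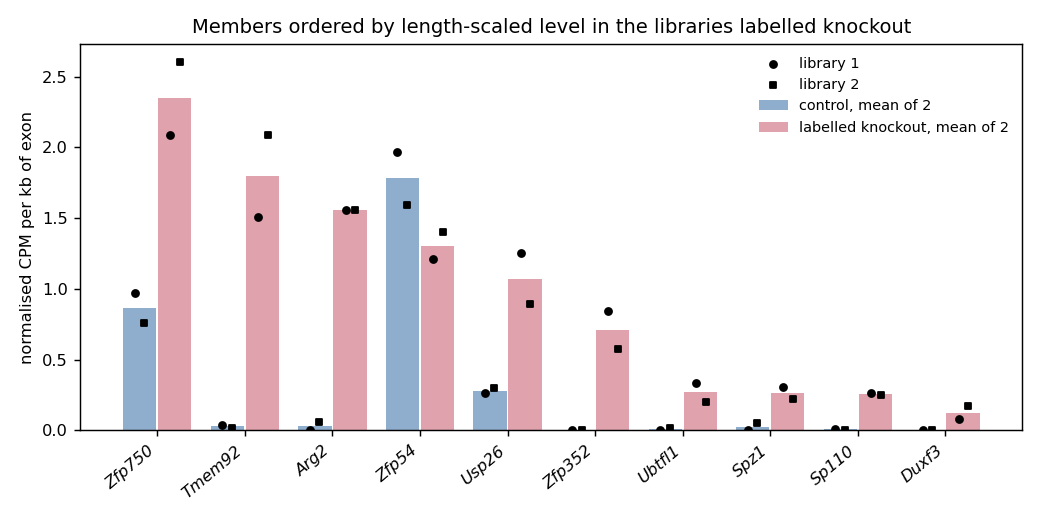
Mean normalised CPM per kb of exon (vertical axis, linear from 0) in controls (blue bars) and labelled-knockout libraries (red bars), with each library as a black point, members ordered by the red bars. Zfp54 alone has the taller blue bar, 1.78 against 1.30, and the red bar of Duxf3, 0.125, rests on 16 counts.

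The 2 labelled-knockout libraries gave nearly the same summed level for the 7 members with at most 3 control counts, 267 and 273 counts or 11.4 and 11.5 CPM. In the controls this sum was 3 and 8 counts. Single members divided differently between the libraries: 5 of the 10 were higher in replicate 1 and 5 in replicate 2. For 7 members the share of counts from replicate 2 had an exact 95% interval that held the 50.4% given by library size. For Tmem92 (58.6%, interval 51.2 to 65.8), Zfp750 (55.9%, 50.6 to 61.1) and Usp26 (42.1%, 35.3 to 49.1) it did not. Duxf3, with 68.8% (41.3 to 89.0), was too thin to show a difference between the libraries. Thin members have wide intervals, so an interval that holds 50.4% does not show agreement. How many of all genes have such an interval was not counted, and these 2 libraries differed by more than sampling noise (chi-square per degree of freedom 11.5). Intervals and floors cover counting error only.

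The run shared by Zfp352 and Sp110 was looked for in all 32851 RefSeq promoter windows, on the strand of the gene, after the values of those genes had been seen. It was in 21 windows of 20 symbols (0.0639% of windows), and all 21 also held TATAAG, which was in 4.42% of all windows on that strand. Windows with the run resemble each other well beyond it, so the 21 are not independent cases. Their TATAAG began anywhere from 130 bases before the start (Gm52608) to 7 after it (I0C0044D17Rik). A TATAAG beginning between 35 and 20 bases before the start was in 0.874% of windows. Besides Zfp352 and Sp110 there were 18 symbols, of which 13 were in the count table and 9 had a count. Of these 9, 7 had 0 to 2 counts over the controls and 9 to 49 over the labelled-knockout libraries. Those limits are the extremes of the 7 themselves, and the share of all symbols within them was not counted. Nothing is therefore read from the 7. Of the 9, 6 were tested, with 5 called higher and 0 lower by edgeR (16.5% and 17.2% over all genes). Those 5 had at most 2 counts over the controls, and since all 155 tested genes with 3 or fewer were called higher, their number follows from the filter and says nothing about the run. The tested gene that was not called was Pemt, a phospholipid methyltransferase gene, with control counts of 28 and 48, against 41 and 39. The 80 bases before the start are shown for 5 of the tested genes beside Sp110, with TATAAG in capitals, to let the flat gene be compared with the others.
Sp110: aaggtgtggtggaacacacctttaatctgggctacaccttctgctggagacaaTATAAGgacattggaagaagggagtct
Gm12724: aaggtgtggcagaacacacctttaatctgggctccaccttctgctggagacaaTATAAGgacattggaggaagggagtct
Gm35974: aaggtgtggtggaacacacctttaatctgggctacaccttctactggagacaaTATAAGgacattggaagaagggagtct
Gm4340: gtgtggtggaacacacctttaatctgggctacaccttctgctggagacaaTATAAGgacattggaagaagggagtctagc
Gm21293: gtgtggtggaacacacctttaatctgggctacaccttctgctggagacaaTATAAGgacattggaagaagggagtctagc
Pemt: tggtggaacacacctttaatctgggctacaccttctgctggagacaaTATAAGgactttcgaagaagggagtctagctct

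These stretches are at chr1:85603892-85603971 (minus strand), chr4:106237042-106237121, chr16:3468380-3468459, chr10:104193962-104194041, chr10:104142907-104142986 and chr11:60040189-60040268 (minus strand), in that order. Gm12724 had control counts of 0 and 2, against 26 and 23 in the labelled-knockout libraries. Gm35974 had 0 and 0 against 22 and 23, Gm4340 0 and 0 against 23 and 26, and Gm21293 0 and 0 against 19 and 14. Pemt, with near-identical letters, did not share the pattern of counts of the others. Its window holds 1 copy of the run, against 2 for Gm12724, Gm35974, Gm4340 and Gm21293 and 3 for Sp110. Other windows with 1 copy were those of Gm12790, Esp24 and I0C0044D17Rik. Gm12790 had control counts of 1 and 0, against 4 and 14, and Esp24 had 0 and 0 against 3 and 6. I0C0044D17Rik had 2 and 2 against 2 and 0. Any link between the number of copies and the counts was not tested. Whether Pemt reads came from this start cannot be read from counts per gene. Gm4340 and Gm21293 belong to a tandem array whose other copies with the run (Gm8764, Gm21304, Gm21312 and Gm20765) were at 0 in all libraries, so the split of reads within the array is uncertain. Predicted genes named here were chosen after their values were seen. A letter match is a description and not a binding site, and no repeat annotation was used here.

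**Figure D4:**
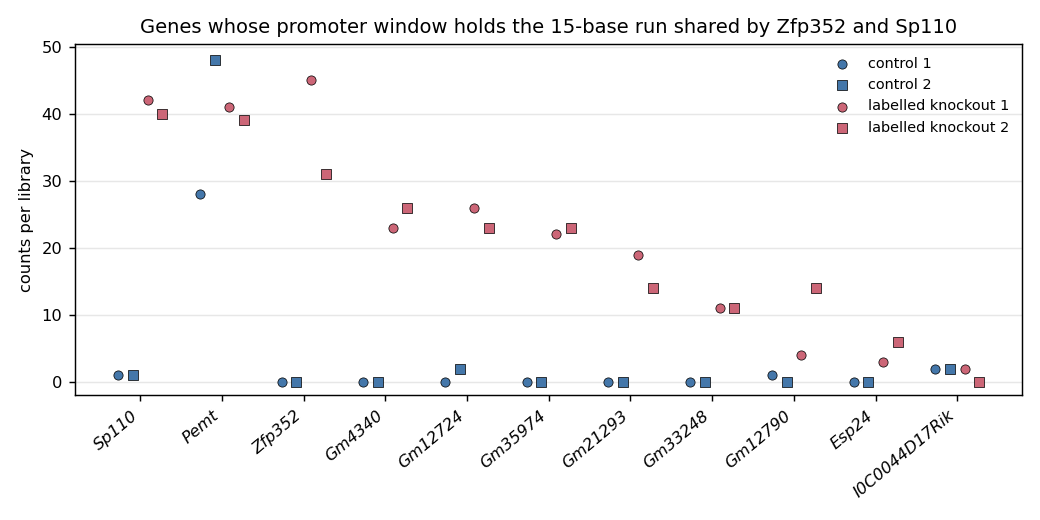
Counts per library (vertical axis, linear) of the 11 symbols that had a count and whose RefSeq promoter window holds the 15-base run; controls are blue, labelled-knockout libraries red, circles replicate 1 and squares replicate 2. In 9 of them the red points stand above the blue, from Sp110 at 42 and 40 against 1 and 1 down to Esp24 at 3 and 6 against 0 and 0. Pemt and I0C0044D17Rik are the exceptions. The 9 include Zfp352 and Sp110, from which the run was taken. How many of all genes split in this way was not counted, so nothing is read from the 9.

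Other letters searched in the 10 member windows, on both strands, were TATAAA and paired homeodomain half-sites, written as TGAT and ATCA with 3 bases between them, first with any bases there and then with T and A as the outer ones. Matches of the stricter form are contained in the looser one. None of the 10 windows held any of these, against 13.6% of all windows for TATAAA, 0.484% for the looser pair and 0.0335% for the stricter one, which says only that these letters are not in these windows. TATAAG, added after the sequences were seen, was in 7.43% of all windows on either strand and was found for Zfp352 and Sp110, and on the opposite strand for Ubtfl1.

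Genes known to act on Dux or on this state were described as lists. Of 8 listed activators 7 were in the table and tested, and 5 rose and 0 fell by edgeR, with a median log2 fold change of 0.45 (over all genes 16.5% rose, 17.2% fell and the median was 0.00). Dppa2, a chromatin factor that works upstream of Dux, was at 28.2 ± 3.85 CPM in controls and rose to 50.0 ± 3.18 CPM, by a log2 fold change of 0.83 ± 0.10 (edgeR adjusted p 2.2e-06). Dppa3, a maternal factor, was at 2.22 and 2.90 CPM in the controls, against 12.5 and 14.7 CPM in the labelled-knockout libraries. Zscan4c, which is a marker of the state as well as a factor within it and is also listed with the other 2-cell genes, went from 5 and 4 counts to 404 and 487. DESeq2 called 3 activators higher, and with scaling by library size alone 7 were called higher.

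Of 34 listed repressors, which include SUMO, H3K9 methylation, Polycomb-like and chromatin assembly factors, 11 rose and 5 fell, with a median log2 fold change of 0.08. These shares, 11 and 5 of 34, stand beside 16.5% and 17.2% over all genes. Hdac1, a histone deacetylase gene, was at 132 ± 0.0509 CPM in controls and rose to 190 ± 21.9 CPM, by a log2 fold change of 0.53 ± 0.07 (edgeR adjusted p 1.4e-05). Myc rose from 7.37 ± 0.0281 to 13.5 ± 1.06 CPM (0.87 ± 0.15). Chaf1b, a subunit gene of the CAF-1 histone chaperone, fell from 94.9 ± 0.891 to 67.4 ± 2.38 CPM (-0.49 ± 0.07, adjusted p 1.9e-05), while Chaf1a, its partner, was at a log2 fold change of -0.07 ± 0.07 (adjusted p 0.481). With scaling by library size alone 16 repressors were called higher and 3 lower. Without control replicate 1 the counts were 4 and 3, and without control replicate 2 they were 5 and 3.

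**Figure D5:**
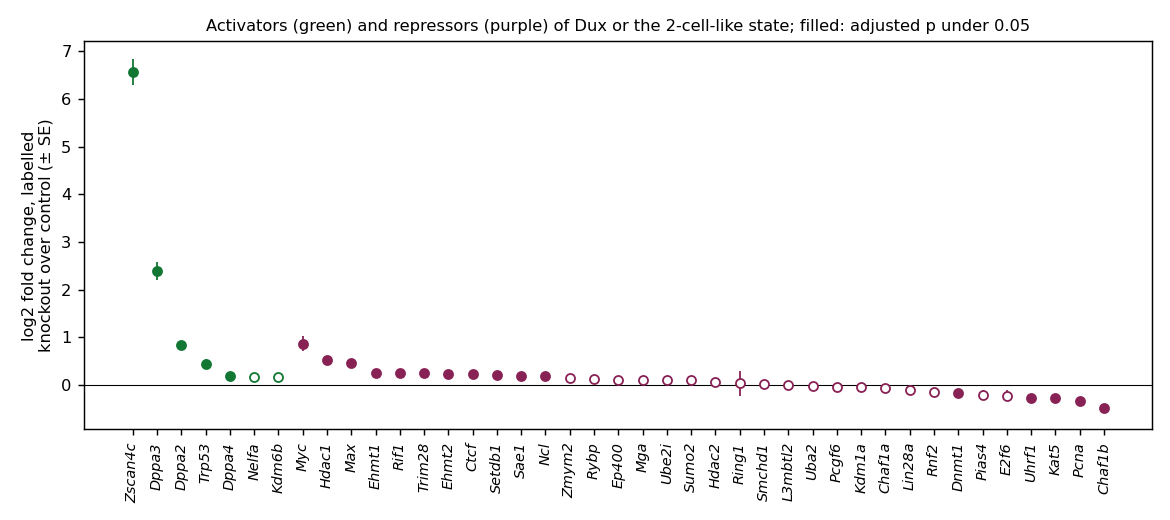
Log2 fold change of the labelled-knockout libraries over control (vertical axis, points with bars of 1 SE from edgeR, n = 2 per group) for 7 activators (green) and 34 repressors (purple), filled where the adjusted p was under 0.05. Zscan4c stands far above the rest, and the repressors lie between 0.87 for Myc and -0.49 for Chaf1b.

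Other genes of the state rose with the members. Of 25 listed, mostly multicopy, 18 were tested, and 18 rose and 0 fell by edgeR and by DESeq2 (0 lower at an unadjusted p under 0.05), beside 16.5% and 17.2% of all genes. The median log2 fold change was 7.41. Of these 18, 11 had at most 3 control counts, a class in which every tested gene was called higher, so the filter sets much of the count as well as of the median. Usp17le, a deubiquitinase gene, had 1 and 2 counts in the controls against 352 and 444. Zscan4a had 1 and 1 against 275 and 228. Calcoco2 and Ddit4l, named after their values were seen, were well above the floor in the controls, like Usp26 and Zfp750. Calcoco2, an autophagy receptor gene, rose from 7.68 ± 0.222 to 36.9 ± 5.23 CPM and Ddit4l from 8.22 ± 0.364 to 12.4 ± 1.39 CPM (log2 fold changes 2.26 ± 0.13 and 0.59 ± 0.15).

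Markers of other cell types were read as whole lists, and each list held genes at or near 0. In all but the keratinocyte list these stood beside better expressed genes. Of 8 macrophage markers, Adgre1 and Lyz2 had no count in any library and Ptprc had 2 in all; the summed level was 23.5 to 24.7 CPM in the controls and 11.7 to 11.9 CPM in the labelled-knockout libraries, nearly all of it from Cd68, which fell from 23.5 ± 0.722 to 11.3 ± 0.0372 CPM. Of 8 testis germ cell markers, Prm1, Prm2, Tnp1, Tnp2 and Acrv1 were at 0 in all libraries, and the sum was 13.0 to 13.2 against 13.4 to 15.5 CPM, nearly all from Ddx4 (13.0 ± 0.230 and 14.4 ± 1.38 CPM). Of 7 keratinocyte markers, Ivl was at 0, Krt5, Trp63 and Lor had 1 count each, Krt14 had control counts of 0 and 0 against 2 and 2, and the sum was 0.998 to 1.06 against 1.41 to 1.89 CPM. Most of that sum came from Krt10 (0.964 ± 0.0807 and 1.52 ± 0.281 CPM), which was not called (edgeR adjusted p 0.225). Of 7 fibroblast markers, Postn and Lum were at 0 in all libraries and the sum was 37.8 to 39.2 against 31.6 to 34.6 CPM, mostly from Thy1 (16.4 ± 0.511 and 14.9 ± 2.60 CPM) and Pdgfrb (18.8 and 21.2 CPM in the controls, against 15.6 and 15.0 CPM). Pdgfrb was called lower (edgeR adjusted p 0.0162), a call lost with DESeq2 (0.0585), with scaling by library size alone (0.0538) and without control replicate 2 (0.203). The collagen gene Col3a1 had control counts of 0 and 0, against 6 and 9. Markers of embryo-derived types were read in the same way. Of 6 primitive endoderm markers 4 of 5 tested rose (16.5% over all genes), with a sum of 9.07 to 11.2 against 29.1 to 34.2 CPM. Of 6 trophoblast markers 1 of 3 tested rose, Tfap2c, and 2 with scaling by library size alone or a filter of 5 CPM. The sum was 67.6 to 68.4 against 110 to 115 CPM, mostly from Tfap2c (52.7 ± 1.56 and 92.7 ± 2.37 CPM). Cdx2 and Elf5 were at 0 in both controls. Eomes and Krt8 were not called in the main fit (edgeR adjusted p 0.0603 and 0.255). The part of these cell types in the members' values was not tested.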

How the data were processed

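RNA of 4 samples, 2 control and 2 labelled knockout, was depleted of ribosomal RNA and primed at random, per the labels' protocols. The deposited table holds raw counts, in whole numbers, for each gene symbol. The authors used cutadapt, HISAT2 and featureCounts with mm10, per the submitters' processing notes; versions, annotation, strand setting and the handling of multimapping reads: not given in the sources used here. If strand was not used, a member and an overlapping gene on the other strand share reads.

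Columns carry OK where titles carry KO and were mapped by role and number. Genes were filtered with filterByExpr (minimum count 10, minimum total 15), scaled by TMM and compared with the quasi-likelihood F test of edgeR 4.0.16 (2-sided, prior count 0.125, 2 residual degrees of freedom; Benjamini-Hochberg over 17482 genes, threshold 0.05), after the code was tested on simulated data. The SE is the log2 fold change divided by the square root of F. Alternatives were DESeq2 1.42.0, other scalings and filters, single libraries left out and a replicate block. Members with 3 control counts or fewer are given as bounds against 3 counts or as count ratios with exact 95% intervals. Replicates of each group differed by more than sampling noise (chi-square per degree of freedom 3.37 and 11.5). Positions and exon lengths are from GENCODE M21 and promoter windows from RefSeq (GRCm38.p6), both on the mm10 build; windows were aligned with Biopython 1.88. Members and lists were chosen with earlier results of these data known. Named genes are the members, their neighbours and overlapping genes, and genes of the lists. For each list the plan was to name the 3 with the smallest adjusted p, or the 2 most abundant where none passed. It was not kept throughout. No primitive endoderm gene is named, while Chaf1a and several relatives and markers are named outside it. Calcoco2, Ddit4l and the predicted genes are said to be chosen later.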

Additional observations from a re-analysis of the deposited data

How the results depend on the processing

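The count of 7 members called higher was 7 or 8 under the alternatives run, except for a stricter filter (5 CPM or more in 2 libraries), which left 1 member tested and 1 called, because fewer genes were tested; 0 were called lower under every alternative. Leaving out single libraries gave 7 members higher each time, and 1915 to 2995 genes higher over the whole table against 2877. The replicate numbers did not pair the samples (correlation of deviations 0.0078), and with the replicate block 7 members, 3072 higher genes and 3216 lower genes were called. Scaling by library size alone moved the median of all genes from 0.003 to 0.087 and called 3887 higher and 2215 lower. The 8 members let through by the filter kept their direction and their side of the threshold in each alternative that tested them. Duxf3, tested in 4 alternatives, was called in 2 (adjusted p 0.0204 and 0.0148) and not in the other 2 (0.0901 and 0.0987), and Spz1 was called in 0 of 4 (0.0516 to 0.285). Of the genes named beside them, 9 with no call changed sign. With scaling by library size alone the log2 fold change was 0.051 for Tbcd, 0.0050 for Zfyve16 and 0.018 for Chaf1a. Without single libraries it ranged from -0.10 to 0.033 for Tbcd, -0.060 to 0.072 for Zfp51, -0.0065 to 0.14 for Elavl2, -0.013 to 0.29 for Serinc5, -0.038 to 0.38 for Zfp52, -0.13 to 0.18 for Zfp53 and -0.22 to 0.41 for Pemt; the cause was not tested. With no more than 3 counts in the controls, 7 of the 10 members have no fold more exact than a bound or a wide interval.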
